A study of Mus musculus with 20 samples.

Results

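The ventricles of 3-day-old wild-type mice (P3) were compared with whole hearts of wild-type embryos at E13.5, to describe how ventricular muscle differs from the mid-gestation heart in gene expression. The libraries were taken from the labels: 3 libraries labelled wild-type, P3 and ventricles, and 4 labelled wild-type, E13.5 and whole heart, 7 of the 20 RNA-seq libraries of a study of the Creld1 gene. All mice were C57BL/6N. In the study's knockouts Creld1 was removed in heart muscle (genotype label MyHC-Creld1 KO), and knockout ventricles and knockout E13.5 hearts served here as a separate set of 7 libraries for the same stage comparison. The 3 pups came from 3 litter labels, all prepared in 2018, and each pup also gave an atrial library. The 4 embryos came from 3 litters: hearts 2 and 3 were littermates, hearts 1, 2 and 3 were prepared in 2016 and heart 4 in 2018. The E13.5 samples contain atria, valves and outflow tract and the P3 samples do not, so stage and dissection cannot be told apart in this comparison. In bulk tissue, fewer cells of a type and less RNA per cell cannot be told apart either.

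Around birth the mouse heart leaves a womb poor in oxygen and fat and begins to live on milk. Heart muscle cells then take up fatty acids and burn them in mitochondria, exchange fetal for adult isoforms of contractile proteins, build up the sarcoplasmic reticulum that releases and recaptures calcium at each beat, and divide for the last time within days. At mid-gestation the same cells are small, divide quickly, depend largely on glucose and lactate, and sit in a heart whose valves and septa are still being modelled.

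Values are the authors' normalized signal per gene, and a log2 difference is the ventricle mean minus the E13.5 mean of log2(signal + 1). Estimated sequencing depth was 5579749 to 13956285 counts per library over the 7 libraries, with 18424 to 20744 genes above 0. Replicates correlated across genes at Pearson's r of 0.885 to 0.919 on the log2 scale and none were identical. Xist, the RNA of the inactive X chromosome, had 2791, 74.9 and 2667 in the ventricles and 2407, 17.8, 2369 and 2669.6 in the hearts. It was low in ventricle 2 and heart 2 alone; the atrial library labelled as pup 2 had 2876, although the labels give it and ventricle 2 to 1 animal. Genes of neighbouring organs were uneven among the embryos: Nkx2-1, a lung and thyroid factor, had 139.2 in heart 1 and 0 in the other 3 hearts and all ventricles, and Epcam, an epithelial adhesion protein, had 135.4, 13.8, 0 and 5.51 in the hearts and 0 in all ventricles. The tissue labels fitted the markers: Myl2, the ventricular light chain, averaged 49025 ± 2410.4 in the ventricles and 19496 ± 1189 in the E13.5 hearts, and Myl7, the atrial light chain, 639 ± 148 in the ventricles and 6402 ± 1747 in the E13.5 hearts (SD, n = 3 and 4, as for all means here).

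Of 26440 genes in the table, 15168 reached a signal of 10 in at least 3 of the 7 libraries and were tested with limma. Of these, 743 (4.90%) were higher and 500 (3.30%) lower in the ventricles at an adjusted p under 0.05, 8.19% in either direction, and the median log2 difference over all tested genes was 0.0036. At least a 2-fold difference was called for 645 genes (4.25%) higher and 392 genes (2.58%) lower. The groups did not overlap, in either direction, in 3171 tested genes (20.9%), so lack of overlap alone is common here. Each library counted: the higher calls were 409 without ventricle 1, 383 without ventricle 2 and 376 without ventricle 3, and the lower calls were 294, 254 and 284 without the same ventricles and 302 without heart 4. With preparation year as a covariate, 150 genes were higher and 34 lower. All ventricles are of 2018, so this fit sets the ventricles against heart 4 alone, as do the 4 libraries of 2018. The median log2 difference over tested genes was -0.054 in both settings. They are therefore not 2 separate checks, and a year effect cannot be told apart from the loss of the other hearts.

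Among the better expressed genes, those that rose most in the ventricles belong to fuel use and to muscle. Ckmt2, the creatine kinase of heart mitochondria (chromosome 13, 91853387 to 91876885 on the minus strand), had 2248, 2152 and 3862 in the ventricles, against 54.7, 41.5, 72.2 and 15.04 in the E13.5 hearts, a log2 difference of 6.02 ± 0.48 (limma adjusted p = 5.00e-05). The lowest ventricle stood far above the highest heart. Fabp4, the fatty acid carrier of fat and capillary cells, differed by 4.82, Acsl1, which activates fatty acids with coenzyme A, by 4.72, and Mb, myoglobin, by 4.46. Then followed Ckm (muscle creatine kinase, 4.09), Fabp3 (heart fatty acid carrier, 4.04), Cd36 (fatty acid uptake, 4.03), Pdk4 (3.93), Cox8b (3.78) and the matrix protein gene Dpt (4.74). These genes differed in the same direction in the knockout libraries, by 3.24 for Ckm up to 4.58 for Dpt.

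Of the called genes that were also better expressed, those that fell most were led by embryonic globins. Hbb-y and Hba-x, the globins of yolk-sac red cells, differed by -13.48 and -12.04 on the log2 scale, followed by Acvr1c (an activin and Nodal receptor, -5.69), Hmga2 (a chromatin protein of dividing embryonic cells, -4.48), Myl4 (-4.22), Gtsf1 (a piRNA pathway protein, -4.19), Cdkn1c (-3.98), Slc2a1 (-3.81), Flrt3 (an adhesion protein, -3.78), Atp7b (a copper pump, -3.56), Ano5 (-3.42) and Myl7 (-3.30). Myl4 and Myl7 are atrial genes, and in P3 atria set against the same E13.5 hearts they differed by 0.40 and 1.88. Across the tested genes, 118 reached 10 in all 3 ventricles and in no E13.5 heart, and 77 of these were called higher. In the other direction, 295 reached 10 in at least 3 E13.5 hearts and in no ventricle, and 56 of these were called lower. The rules were unlike, because every ventricle had to reach 10 but not every heart. The counts of 118 and 295 therefore cannot be set against each other.

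**Figure D1:**
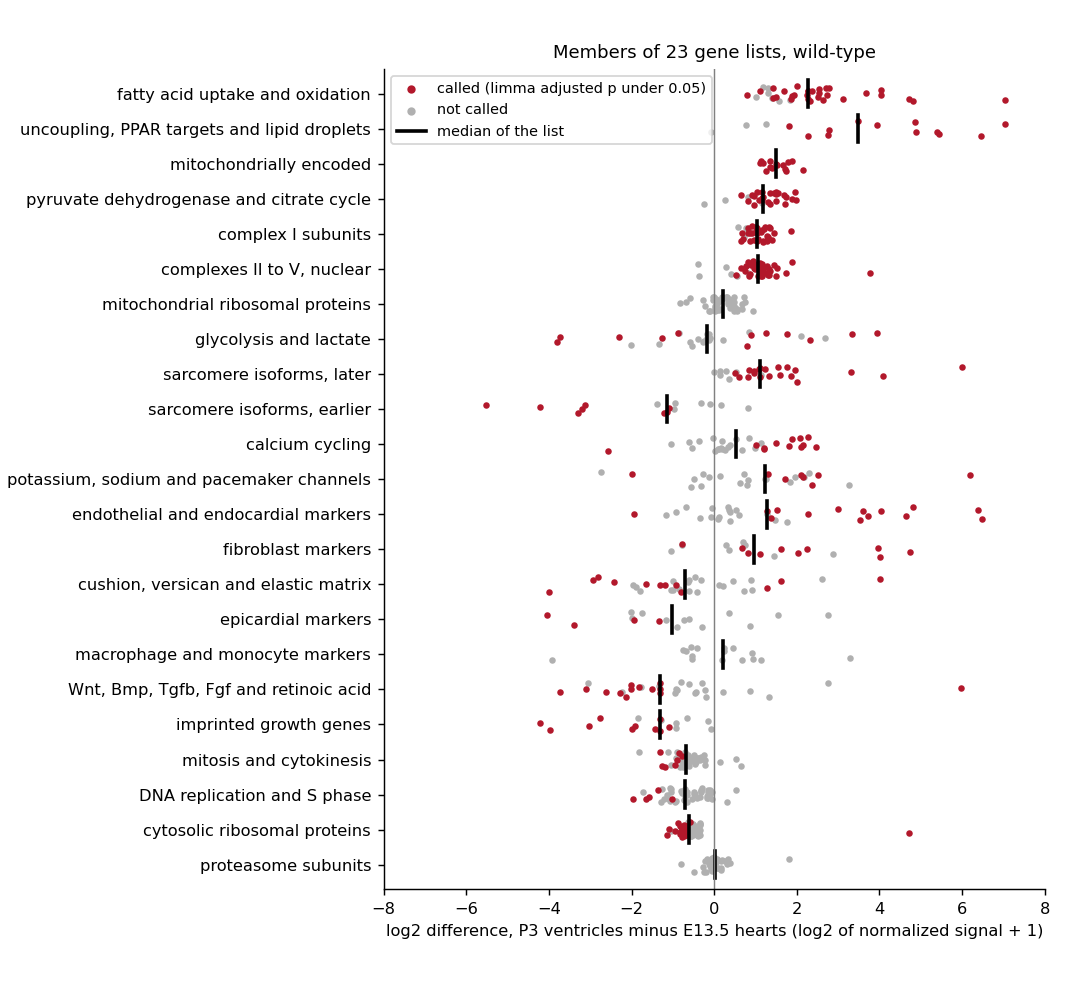
Log2 difference of P3 ventricles minus E13.5 hearts (horizontal axis, log2 of normalized signal + 1) for each tested member of 23 gene lists (1 row a list, 1 point a gene; red, limma adjusted p under 0.05; grey, not called; black bar, median of the list). The fatty acid genes centre on 2.26 with 30 of 37 called higher, and the imprinted growth genes on -1.32 with 10 of 17 called lower.

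Of the contractile genes, later forms rose and earlier forms fell in part. Calls in this and the later lists stand beside 4.90% higher and 3.30% lower among all tested genes. A single call in a list is often near these shares. Of 28 genes listed for the later sarcomere, 20 rose, none fell, and the median log2 difference was 1.10. Of 15 listed for the earlier sarcomere, 8 fell, none rose, and the median was -1.13. The later list also holds Ckm and Cryab, and cardiac forms such as Myl2 and Tnnt2 that the E13.5 hearts expressed too. Its rise is therefore not by itself an exchange of earlier for later forms. Rescaling every library to the same total signal lowered the median of all tested genes to -0.56, and rescaling to the same total of genes outside the mitochondrial genome lowered it to -0.18. Under the first of these the later sarcomere genes still had a median of 0.53. Myh6, the fast alpha myosin heavy chain of the rodent heart (chromosome 14, 54941921 to 54966927 on the minus strand), had 110230.0, 91672 and 109990.0 in the ventricles, against 25780.0, 20554, 27961 and 30635 in the E13.5 hearts. Every ventricle was above every heart, by 1.997 ± 0.16 (limma adjusted p = 6.16e-05). Myh7, the slow beta myosin that lies next to it, had 10932, 6231 and 5158 in the ventricles, against 11900.0, 19326, 12214 and 20481 in the E13.5 hearts, and fell by 1.13 (limma adjusted p = 0.0308). The Myh6 to Myh7 signal ratio was 10.1 to 21.3 in the ventricles, against 1.06 to 2.29 in the E13.5 hearts. The non-coding Mhrt is transcribed from the opposite strand of Myh7, and the strand of the reads is not stated, so the share of either in the signal cannot be told apart.

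The troponin I pair moved through 1 partner. Tnni3, adult cardiac troponin I, which lets adrenaline speed relaxation, had 18871, 18690.0 and 21502 in the ventricles, against 5595, 5301, 5837 and 6327 in the E13.5 hearts and rose by 1.77 ± 0.14 (limma adjusted p = 4.69e-05). Its groups did not overlap. Tnni1, the fetal slow skeletal form, averaged 4184 ± 1579.9 in the ventricles and 3646 ± 927 in the E13.5 hearts and was not called (limma adjusted p = 0.799), so that the Tnni3 to Tnni1 ratio was 3.31 to 8.45 in the ventricles, against 1.21 to 2.10 in the E13.5 hearts. Myom2, which bundles thick filaments at the M-band, rose by 3.31, with 1317, 927 and 1225 in the ventricles, against 123, 80.3, 182 and 95.8 in the E13.5 hearts. Xirp2, an actin-binding protein of the intercalated disc, was uneven, with 610.3, 250.03 and 1418 in the ventricles, against 37.3, 57.1, 2.55 and 0 in the E13.5 hearts. Ventricle 3 had several times the signal of ventricle 2, which was still above the highest heart. Myl2 rose by 1.33, Myl3 by 1.55, Tnnt2 (troponin T) by 1.10, Tpm1 (tropomyosin) by 1.24, Mybpc3 (myosin-binding protein C) by 1.08 and Tnnc1 (troponin C) by 0.84. Actc1, cardiac actin, rose least, by 0.51, and with libraries rescaled to the same total it differed by -0.07.

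Among the earlier forms that fell were the atrial light chains. Myl4 (chromosome 11, 104550663 to 104595753 on the plus strand) had 448, 359.7 and 777 in the ventricles, against 9428, 6768, 10506 and 11338 in the E13.5 hearts, and Myl7 (chromosome 11, 5896637 to 5898782 on the minus strand) had 571, 537 and 809 in the ventricles, against 7186, 3805, 7030.4 and 7585 in the E13.5 hearts; in both genes the highest ventricle was below the lowest heart. Myl1, a skeletal alkali light chain, fell by 3.12 and Tnnt1, slow skeletal troponin T, fell by 3.19. Tnnt1 had 254, 248 and 122 in the ventricles, against 1477, 2073, 1768 and 1994 in the E13.5 hearts. Myh10 and Myl9, non-muscle and smooth muscle myosin chains, fell by 1.09 and 1.21. Cnn1, calponin, an actin-binding protein of smooth and embryonic heart muscle, had 4.55, 4.32 and 2.11 in the ventricles, against 283, 124, 295 and 171 in the E13.5 hearts. In the knockout libraries 20 of the later sarcomere genes were higher and 5 of the earlier ones lower, where 3.67% and 2.16% of all tested genes were called.

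**Figure D2:**
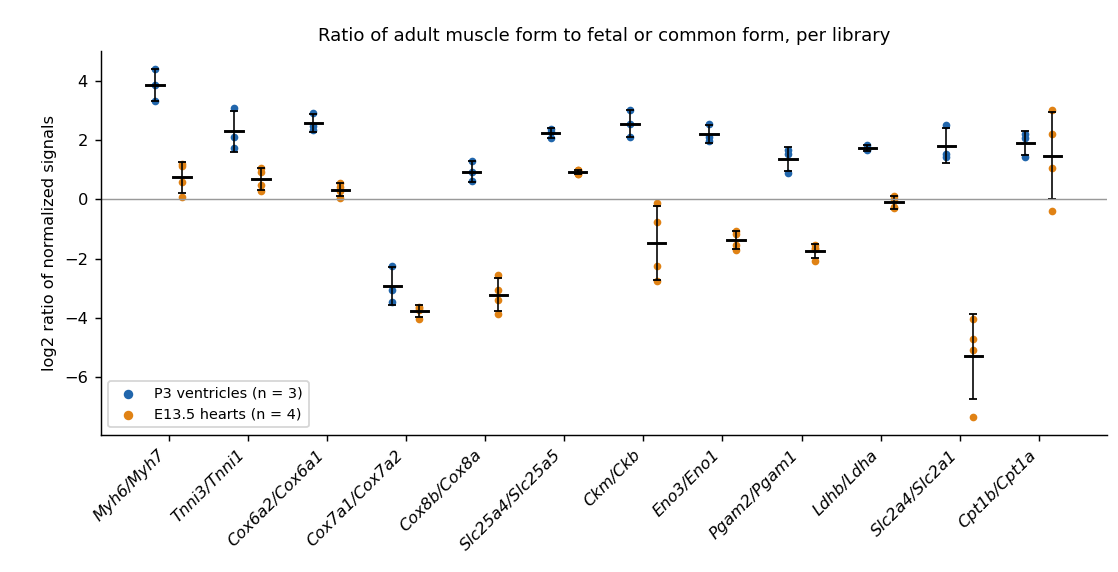
Log2 ratio of the normalized signals of 12 isoform pairs in each library (points; vertical axis in log2 units; bars, mean and SD), P3 ventricles left of E13.5 hearts in each pair. The groups overlap for Cpt1b/Cpt1a and for no other pair shown, and the mean ratio differs by 3.13 for Myh6/Myh7 and by 7.13 for Slc2a4/Slc2a1.

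Pump, brake and release channel of the calcium store rose, in a list of which most members were not called. Of 31 calcium cycling genes 11 rose and 1 fell, and the median was 0.54 against -0.04 with equal totals. The lower share (3.23%) was near the 3.30% of all tested genes. Atp2a2, the SERCA pump that refills the store, had 30236, 40971 and 31304 in the ventricles, against 6748, 8115, 9133 and 6748 in the E13.5 hearts, and rose by 2.15 ± 0.17 (limma adjusted p = 4.69e-05). Pln, phospholamban, its brake, rose by 2.09 ± 0.20, with 33682, 34027 and 26255 in the ventricles, against 5562, 9925, 6515 and 7812 in the E13.5 hearts. Both genes had their lowest ventricle far above their highest heart. Ryr2, the release channel, rose by 1.7999, S100a1, which binds both pump and channel, by 2.07, Casq2, the cardiac calcium buffer of the store, by 2.28, and Hrc and Tmem38a, further proteins of the store, by 1.5003 and 1.87. Casq1, the skeletal calsequestrin, fell by 2.58, with 89.3, 63.8 and 135 in the ventricles, against 339, 574, 834 and 569.7 in the E13.5 hearts.

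Among 26 potassium, sodium and pacemaker channel genes 7 rose and 1 fell (4 higher without ventricle 1 and 4 without ventricle 3). Kcnip2, the subunit of the fast transient outward current, had 151, 141 and 107 in the ventricles, against 0, 3.46, 0 and 1.37 in the E13.5 hearts; 2 of the hearts were listed at 0. Kcne1, a subunit of the slow delayed rectifier, rose by 2.52 and Abcc9, the sulfonylurea receptor of the KATP channel, by 2.15. Fgf12, a modulator of sodium channels, fell by 1.99 (0 lower without ventricle 2, 0 without ventricle 3 and 0 without heart 4). Of 20 intercalated disc genes 4 rose and 1 fell (2 higher without ventricle 2, 2 without ventricle 3 and 2 without heart 4). Gja1, connexin 43, the gap junction of working muscle, had 76875, 101770.0 and 91199 in the ventricles, against 19936, 62182, 49384 and 39219 in the E13.5 hearts, and rose by 1.18; Dsp, desmoplakin, rose by 0.69, Ctnna1, alpha catenin, by 1.08 and Ank2, ankyrin B, by 1.74. Gja5, connexin 40, of atria and the conduction system, fell by 2.26 (0 lower without ventricle 1, 0 without ventricle 3, 0 without heart 3 and 0 without heart 4), with 36.6, 118 and 33.8 in the ventricles, against 229, 143, 465 and 282 in the E13.5 hearts. Of 20 Z-disc genes 8 rose and 1 fell (5 higher without ventricle 1): Fhl2 rose by 2.92, Myoz2 by 1.95, Pdlim5 by 1.09 and Actn2, alpha actinin, by 1.03, and Pdlim3 fell by 1.39 (2 lower without ventricle 1).

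Hormone receptors of the stress axis rose in part. Of 21 adrenergic, muscarinic and angiotensin genes, 8 rose and 2 fell (2 higher without ventricle 1, 3 without ventricle 2, 3 without ventricle 3 and 4 without heart 4, and 1 lower without ventricle 2, 1 without ventricle 3, 1 without heart 2, 1 without heart 3 and 1 without heart 4). Adrb1, the main cardiac beta receptor, had 131, 101 and 181 in the ventricles, against 23.6, 27.7, 51.0 and 35.6 in the E13.5 hearts, without overlap, and rose by 1.99 ± 0.47 (limma adjusted p = 0.0254). Rgs2 and Rgs5, which shorten G-protein signals, rose by 2.004 and 3.50, and Akap6, the anchor of protein kinase A at the nucleus, by 1.40. Ppp1r1a, a phosphatase inhibitor, fell by 2.42, and Ednrb, an endothelin receptor, by 1.17. Of 12 natriuretic and stress genes 2 rose and 4 fell (1 higher without ventricle 1, 1 without ventricle 2 and 1 without ventricle 3, and 1 lower without ventricle 1, 1 without ventricle 2, 2 without heart 2 and 2 without heart 4). Nppa, the atrial natriuretic peptide gene, had 971, 645 and 5411 in the ventricles, against 7358, 9484, 11156 and 11528 in the E13.5 hearts, and fell by 2.69 (limma adjusted p = 0.0143); in P3 atria against the same hearts the difference was 2.52. Npr3, the clearance receptor of the peptide, fell by 1.93, and Corin, the protease that matures it, rose by 1.44.

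Most genes of fatty acid use rose. Of 37 genes of fatty acid uptake and oxidation 30 rose and none fell, the median was 2.26, and with equal totals it was 1.68. The summed signal of the list was 192705 to 193182 in the ventricles, against 24631 to 37958 in the E13.5 hearts. Fabp3 (chromosome 4, 130308595 to 130315463 on the plus strand) had 30197, 28115 and 30005 in the ventricles, against 1527, 2457, 1574 and 1713 in the E13.5 hearts, and rose by 4.04 ± 0.18 (limma adjusted p = 3.28e-06). Lpl, the lipase that frees fatty acids from blood lipoproteins, had 16156, 18409 and 18830.0 in the ventricles, against 1460.3, 2514, 2533 and 1914 in the E13.5 hearts, and rose by 3.11. In both genes the groups were far apart. Uptake and activation rose at Cd36, Acsl1 and Slc27a1 (2.504). Entry into mitochondria rose at Cpt1b (2.28), the muscle carnitine transferase, Slc25a20 (1.93), the carnitine carrier, and Cpt2 (1.88).

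Each step of the oxidation spiral was represented. Acadvl, Acadl and Acadm, the dehydrogenases of very long, long and medium chains, rose by 3.68, 2.24 and 2.26. Hadha and Hadhb, the 2 chains of the trifunctional protein, rose by 2.71 and 2.31, and Acaa2, the thiolase of the last step, by 2.52. Hadhb had 9189.7, 8319 and 7039.8 in the ventricles, against 1554, 1879.8, 1609 and 1539.5 in the E13.5 hearts. Etfa, Etfb and Etfdh, which hand the electrons to the respiratory chain, rose by 2.002, 1.49 and 2.27. Plin5, which tethers lipid droplets to mitochondria, had 114, 120.5 and 163 in the ventricles and was listed at 0 in all 4 hearts. Cpt1a, the carnitine transferase of liver and fetal tissues, averaged 643 ± 215 in the ventricles and 231 ± 169 in the E13.5 hearts and was not called (limma adjusted p = 0.105); the Cpt1b to Cpt1a ratio overlapped between groups. Knockout libraries gave 24 higher and none lower of the 37.

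Genes known as targets of the fatty acid sensors PPAR moved likewise: of 15 uncoupling, PPAR target and lipid droplet genes 12 rose and none fell, with a median of 3.47. Pdk4, which shuts off pyruvate oxidation when fat is plentiful, had 1470.5, 2036 and 2299.9 in the ventricles, against 70.6, 190.0, 114 and 153 in the E13.5 hearts, and rose by 3.93 ± 0.34 (limma adjusted p = 8.52e-05). Ucp3, a mitochondrial carrier, had 63.0, 153 and 67.8 in the ventricles and was listed at 0 in all hearts. Angptl4, which inhibits lipoprotein lipase, rose by 3.47, and Txnip, which curbs glucose uptake, by 1.82. Acot2, a mitochondrial thioesterase, rose by 2.79; its neighbour Acot1 is a near copy, and reads may be shared between them. Of the 17 regulators tested 3 rose (1 higher without ventricle 1 and 1 without ventricle 2). Perm1, which drives mitochondrial genes with PGC1 and ERR, had 244, 274 and 261 in the ventricles, against 8.36, 3.46, 5.95 and 0 in the E13.5 hearts, and Klf15 rose by 4.51 and Ppargc1b by 1.67. Ppargc1a, the best known member of the PGC1 family, averaged 1629 ± 137 in the ventricles and 1028 ± 193 in the E13.5 hearts (limma adjusted p = 0.0569) and Esrra, the ERR alpha receptor, 98.5 ± 5.57 in the ventricles and 64.9 ± 36.3 in the E13.5 hearts (limma adjusted p = 0.457), neither called. Ppara, the fatty acid sensor of the adult heart, was too low to be tested, with 42.8, 47.9 and 4.12 in the ventricles and 1.17, 1.33, 8.85 and 0 in the hearts. The median of the regulators was 0.31 and turned to -0.26 with equal totals.

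Most genes of the mitochondrial machinery rose, at medians of about 2-fold. Of 29 genes of pyruvate dehydrogenase and the citrate cycle 25 rose, of 37 complex I subunits 33 and of 44 nuclear genes of complexes II to V 38, with none lower in any of the lists and medians of 1.17, 1.04 and 1.05. With preparation year as a covariate 6, 4 and 6 were higher, and with the 2018 libraries alone 0, 0 and 1. With equal totals these medians were 0.59, 0.47 and 0.48, and in P3 atria against the same E13.5 hearts they were 0.26, 0.05 and -0.08. Mpc1 and Mpc2, the pyruvate carrier of the inner membrane, rose by 1.88 and 1.95, Pdha1, the regulated chain of pyruvate dehydrogenase, by 1.75, Sucla2 by 1.54 and Sdha by 1.49. Pdha1 had 5300.4, 5507 and 6572 in the ventricles, against 1461, 1888, 1691 and 1857 in the E13.5 hearts, without overlap. Among the complex I subunits Ndufb10 rose by 1.85 (limma adjusted p = 0.000223), and Ndufb9, Ndufa1 and Ndufa5 by 1.32, 1.35 and 1.30. Uqcr10, a called gene of complexes II to V, rose by 0.53 and did not keep its direction with equal totals (-0.05).

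The heart and muscle isoforms of cytochrome oxidase rose beyond their partners. Cox8b (chromosome 7, 140898945 to 140900446 on the minus strand) had 3972, 2829.7 and 2724 in the ventricles, against 123, 370.3, 201 and 286 in the E13.5 hearts, and rose by 3.78 ± 0.34 (limma adjusted p = 0.000108), while Cox8a, the form of most tissues, averaged 1633 ± 143 in the ventricles and 2132 ± 241 in the E13.5 hearts and was not called (limma adjusted p = 0.213). The Cox8b to Cox8a ratio was 1.53 to 2.45 in the ventricles, against 0.0687 to 0.171 in the E13.5 hearts, and the Cox6a2 to Cox6a1 ratio was 5.05 to 7.59 in the ventricles, against 1.03 to 1.46 in the E13.5 hearts. Both pairs had groups that did not overlap (exact permutation test, two-sided p = 0.0571, the smallest that 3 against 4 libraries allow). Cox7a1 rose by 1.73 and its partner Cox7a2 by 0.89.

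All 15 listed genes of the mitochondrial genome rose in the ventricles, by 1.12 for the ribosomal mt-Rnr1 to 2.15 for mt-Co1, with a median of 1.496. In P3 atria against the same E13.5 hearts the median of these 15 genes was -0.02. For the ventricles, 2 of them were called in 1 fit of 20 libraries, and 10 with preparation year as a covariate. All mitochondrially encoded genes of the deposited data together took 39.9 ± 1.41% of the signal in the ventricles and 21.2 ± 0.707% in the E13.5 hearts (SD, n = 3 and 4). The share was 36.7 ± 0.523% in knockout ventricles and 20.97 ± 1.19% in knockout E13.5 hearts. The 3 wild-type ventricles lay between 38.5 and 41.3% and the 4 wild-type hearts between 20.4 and 22.01%. The 3 wild-type P3 atria had 24.3 ± 12.1%, from 10.4 to 31.3%. Within heart 4, prepared in the same year as the ventricles, the share was 20.98%. Nuclear copies of mitochondrial DNA can hold part of such reads, and mt-Nd6 and mt-Nd5 overlap on opposite strands. None of 44 mitochondrial ribosomal protein genes was called in either direction, at a median of 0.22 that turned to -0.36 with equal totals. Of 22 genes of mitochondrial dynamics and cristae 6 rose and 1 fell: the fusion proteins Mfn1 and Mfn2 rose by 1.72 and 1.499, Chchd3 of the cristae junctions by 1.36 and Pink1, a sensor of damaged mitochondria, by 1.39, and Bnip3, a mitophagy receptor, fell by 1.22 (0 lower without ventricle 1, 0 without ventricle 3, 0 without heart 2 and 0 without heart 4).

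**Figure D3:**
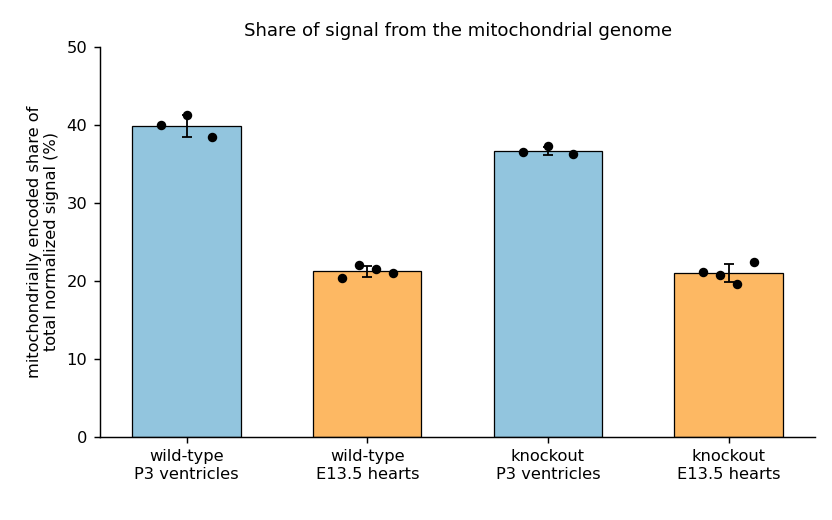
Share of the normalized signal from the mitochondrial genome (vertical axis, percent; bars, mean and SD; points, libraries), with P3 ventricles left of E13.5 hearts in wild-type and in knockout mice. The lowest ventricle library had 36.3% and the highest E13.5 library 22.4%.

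Genes of the creatine and myoglobin energy shuttle rose in part. Of 14 creatine, myoglobin and adenylate genes 8 rose and none fell (5 higher without ventricle 1, 5 without ventricle 3 and 5 without heart 4). Mb, which stores oxygen and eases its passage to mitochondria, had 15946, 13500.0 and 14951 in the ventricles, against 533, 998, 570.1 and 661 in the E13.5 hearts, and rose by 4.46 ± 0.22 (limma adjusted p = 3.95e-06). Ckm had 2164, 1462 and 1584 in the ventricles, against 172, 272, 27.0 and 75.7 in the E13.5 hearts. The lowest ventricle exceeded the highest heart in both. Ckb, the brain-type creatine kinase, averaged 292 ± 60.7 in the ventricles and 285 ± 73.6 in the E13.5 hearts and was not called (limma adjusted p = 0.941), so the Ckm to Ckb ratio was 4.37 to 8.15 in the ventricles, against 0.148 to 0.928 in the E13.5 hearts. Slc25a4, the adenine nucleotide carrier of muscle, rose by 1.72 and Ak1, adenylate kinase, by 1.72. Of 7 ketone genes 3 rose, among them Acat1 by 1.11 and Slc16a1, the carrier of lactate and ketones, by 0.90.

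Of the glucose genes, the carriers, enolases and phosphoglycerate mutases each had 1 form that rose and 1 that fell. Of 29 glycolysis and lactate genes 7 rose (3 higher without ventricle 1, 3 without ventricle 2 and 4 without ventricle 3) and 5 fell, with a median of -0.17. Slc2a1, the fetal glucose carrier GLUT1, had 37.4, 47.0 and 33.3 in the ventricles, against 547, 391, 676 and 659 in the E13.5 hearts, and fell by 3.81 (limma adjusted p = 6.41e-05). Slc2a4, the insulin-dependent GLUT4, had 102, 138 and 194 in the ventricles, against 2.31, 10.5, 39.5 and 24.1 in the E13.5 hearts, and rose by 3.33 (limma adjusted p = 0.0303). The groups overlapped in neither gene, and the Slc2a4 to Slc2a1 ratio was 2.69 to 5.68 in the ventricles, against 0.00604 to 0.0599 in the E13.5 hearts. Eno3 and Pgam2, the muscle enolase and mutase, rose by 2.32 and 0.80, while Eno1 and Pgam1, their widespread partners, fell by 1.26 and 2.29. The Eno3 to Eno1 ratio was 3.94 to 5.83 in the ventricles, against 0.305 to 0.481 in the E13.5 hearts. Ldhb, the heart form of lactate dehydrogenase, rose by 1.26, Ldha averaged 2797 ± 38.5 in the ventricles and 4226 ± 776 in the E13.5 hearts (limma adjusted p = 0.0714), and the Ldhb to Ldha ratio was 3.18 to 3.59 in the ventricles, against 0.817 to 1.09 in the E13.5 hearts. The Aldoa to Aldoc ratio, of 2 aldolases, overlapped between the groups.

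Postnatal hormone and clock genes rose in part: 8 of 32 thyroid, glucocorticoid and clock genes rose and none fell (3 higher without ventricle 1, 3 without ventricle 2 and 3 without ventricle 3). Nr3c1, the glucocorticoid receptor, rose by 1.43 and Klf9, a gene it induces, by 2.59. Npas2, a clock factor, averaged 298 ± 126 in the ventricles and 21.7 ± 17.9 in the E13.5 hearts, and Dbp, an output of the clock, had 40.1, 69.0 and 46.2 in the ventricles, against 0, 0, 0 and 2.71 in the E13.5 hearts. Thra and Thrb, the thyroid hormone receptors, averaged 286 against 177 and 35.5 against 4.21 in ventricles against hearts and were not called (limma adjusted p = 0.188 and 0.109). Of 23 antioxidant genes 4 rose (2 higher without ventricle 2 and 1 without ventricle 3), among them Sod2 of mitochondria (1.47), Prdx5 (1.11) and catalase, Cat (1.24), and Gpx3, a secreted peroxidase, fell by 2.61. Of 22 hypoxia genes 1 rose, Epas1, the HIF of vessels (1.58), and 2 fell, Slc2a1 and Bnip3 (1 lower without ventricle 1, 1 without ventricle 3, 1 without heart 2 and 1 without heart 4). The higher share (4.55%) was near the 4.90% of all tested genes.

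Of 48 mitosis genes 7 fell, none rose 41 were not called and 45 had a negative difference, at a median of -0.68 (1 lower without ventricle 1, 2 without ventricle 2, 3 without heart 3 and 2 without heart 4). Their summed signal was 17919.5 to 26679 in the ventricles, against 33996 to 35319.9 in the E13.5 hearts. Ube2c, which hands ubiquitin to the anaphase-promoting complex, had 242, 334 and 392 in the ventricles, against 806, 928, 933 and 556 in the E13.5 hearts, and fell by 1.32 (limma adjusted p = 0.0123). Its highest ventricle was below its lowest heart. Top2a, which untangles chromosomes, had 2495, 2866 and 2734 in the ventricles, against 3889, 5252, 4679 and 4641 in the E13.5 hearts, and fell by 0.77 (limma adjusted p = 0.0132); Birc5, survivin, fell by 0.86, Cenpe, a kinetochore motor, by 0.91, Kif20a, a cytokinesis motor, by 1.26, Aspm, of the spindle pole, by 0.94 and Cdca8, borealin, by 1.20. Of 49 replication genes 5 fell, none rose and 44 were not called, at a median of -0.72 (3 lower without ventricle 1, 2 without ventricle 2, 2 without ventricle 3, 3 without heart 1 and 3 without heart 3). Pola2, a chain of DNA polymerase alpha, had 532, 544 and 551 in the ventricles, against 2240.1, 1156, 1817 and 1517 in the E13.5 hearts, and fell by 1.59 (limma adjusted p = 0.00204). Cdc7, which fires origins, fell by 1.96, Lig1, which joins lagging strands, by 1.35, Pole by 1.64 and Dnmt1, which copies methylation, by 1.03. With preparation year as a covariate, and with the 2018 libraries alone, 0 mitosis and 0 replication genes were lower. Knockout libraries called 8 mitosis and 2 replication genes lower, with medians of -0.70 and -0.67.

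The promoters of the mitosis genes share short sequences. In 300 bases around the first RefSeq start (250 before, 50 after; GRCm38.p6), TTTGAA, the core of the cell cycle homology element, stood on either strand in 31 of 41 mitosis genes with a promoter in the table (75.6%), against 12.4% of 10230 tested genes. CCAAT, the letters bound by NF-Y, stood in 29 of 41 (70.7%) against 39.1%. It was not particular to mitosis genes: it stood in 63.4% of replication genes and 64% of pyruvate dehydrogenase and citrate cycle genes. In the other lists searched the share was 30.3 to 54.6%. Of 41 replication genes 16 (39.0%) held TTCCCGC and 7 (17.1%) TTTGGCGC, both forms of the E2F site, against 8.37% and 1.03%. A match is a run of letters and not a measured site. Patterns of other factors were also searched, in these and in metabolic and sarcomere lists. TCAAGGTCA, a site of ERR, stood in 0 of 28 fatty acid and 0 of 33 complex I genes. It stood in 2 of 33 genes of complexes II to V (6.06%), against 0.235% of tested genes. The 150 bases before the start are given for 4 called genes that hold these letters, 5′ to 3′ on the gene's own strand, with TTTGAA and CCAAT, on either strand, in capitals. The window of Ube2c lies at chr2:164769779-164769928, plus strand, that of Top2a at chr11:99024190-99024339, minus strand, that of Cdca8 at chr4:124936918-124937067, minus strand and that of Aspm at chr1:139454623-139454772, plus strand, all from RefSeq.
Ube2c: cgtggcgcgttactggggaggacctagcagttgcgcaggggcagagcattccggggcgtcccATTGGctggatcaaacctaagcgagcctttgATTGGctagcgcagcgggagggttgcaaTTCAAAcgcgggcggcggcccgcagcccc
Top2a: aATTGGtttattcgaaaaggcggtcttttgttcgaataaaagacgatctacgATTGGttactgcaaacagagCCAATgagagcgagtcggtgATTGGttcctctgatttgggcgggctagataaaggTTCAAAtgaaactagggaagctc
Cdca8: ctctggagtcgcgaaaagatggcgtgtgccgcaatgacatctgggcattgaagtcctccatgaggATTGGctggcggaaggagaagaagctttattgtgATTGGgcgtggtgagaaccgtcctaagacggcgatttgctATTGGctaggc
Aspm: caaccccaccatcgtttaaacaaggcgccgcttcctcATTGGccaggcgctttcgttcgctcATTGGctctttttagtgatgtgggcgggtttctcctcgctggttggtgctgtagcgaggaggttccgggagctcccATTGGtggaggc
In these windows Ube2c and Top2a hold TTTGAA (read as TTCAAA) close to the start, and all 4 hold CCAAT, mostly read as ATTGG.

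Of 24 genes of the G1 phase 4 fell and 2 rose. Cdkn1c, the CDK inhibitor p57 (chromosome 7, 143458339 to 143461050 on the minus strand), had 339.8, 233 and 208 in the ventricles, against 5065, 3122, 4146 and 4028 in the E13.5 hearts, and fell by 3.98 (limma adjusted p = 1.23e-05). Cdk4 fell by 1.59, Mycn, which drives embryonic muscle growth, by 1.83 and Meis2, a partner of Hox proteins, by 1.30. Ccng1, a p53 target, rose by 1.16 and Cdkn2c, the inhibitor p18, by 1.69 (1 higher without ventricle 1, 0 without ventricle 2 and 0 without ventricle 3). Ccnd1 and Ccnd2, the D cyclins, averaged 365 against 346 and 1228 against 2403 in ventricles against hearts (limma adjusted p = 0.943 and 0.0910), and Meis1, which holds postnatal heart cells out of the cycle in mice, 291 against 442 (limma adjusted p = 0.423).

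Most imprinted genes of fetal growth fell. Of 17 tested, 10 fell, 7 were not called and none had a positive difference, at a median of -1.32, and knockout libraries called 11 lower at a median of -1.36. Igf2, the fetal growth factor (chromosome 7, 142650766 to 142666816 on the minus strand), had 1402, 1128 and 916 in the ventricles, against 4200.1, 4069.6, 4217 and 4577 in the E13.5 hearts, and fell by 1.91 (limma adjusted p = 0.000123). H19, the RNA of the other parental allele beside it (chromosome 7, 142575529 to 142578143 on the minus strand), had 1459, 1305 and 930.0 in the ventricles, against 9702, 7472, 7602 and 8411 in the E13.5 hearts, and fell by 2.77 (limma adjusted p = 2.64e-05). Each of the 4 hearts was above each ventricle in both. Mest, a membrane hydrolase gene expressed from the father's copy, had 2706, 2727 and 3125 in the ventricles, against 9735, 12569, 11476 and 11411 in the E13.5 hearts, and fell by 1.98; Plagl1, a zinc finger factor, fell by 1.44, Peg3 by 1.32, Meg3 by 1.30 and Grb10, which dampens insulin signals, by 1.10. Igf2 overlaps its antisense gene and Mest overlaps Copg2, so their signals are uncertain to that extent.

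In the insulin-like growth factor axis of 16 genes, 5 rose (3 higher without ventricle 1, 3 without ventricle 2 and 3 without ventricle 3) and 4 fell. Insr, the insulin receptor, rose by 1.37, Ghr, the growth hormone receptor, by 0.88, and Socs2 and Grb14, which damp these receptors, by 1.78 and 1.52. Igfbp7 rose by 3.48, while Igfbp5 fell by 1.77 and Igfbp2 fell by 2.63. Of 15 fetal Lin28, Igf2bp, Hmga and Sox genes 5 fell and none rose (3 lower without ventricle 1, 3 without ventricle 2, 3 without ventricle 3, 3 without heart 1, 3 without heart 3 and 3 without heart 4). Hmga2 (chromosome 10, 120361275 to 120476469 on the minus strand) had 52.7, 56.5 and 13.05 in the ventricles, against 803, 719, 775 and 831 in the E13.5 hearts, and fell by 4.48 (limma adjusted p = 0.000207). Sox11 fell by 2.03, and the RNA-binding Igf2bp2 and Igf2bp3 by 1.90 and 1.01.

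Signals of heart modelling fell in part in the ventricles. Of 31 Wnt, Bmp, Tgfb, Fgf and retinoic acid genes 12 fell and 1 rose (6 lower without ventricle 3). Their median was -1.30 in the ventricles and 0.03 in P3 atria, each against the same E13.5 hearts. Members that fell in the ventricles were Sfrp1, a Wnt antagonist (-2.02), Wnt5a (-2.02), Id2, an inhibitor of bHLH factors (-1.81), Bmp2 (-2.13), Bmp10, of trabeculae and atria (-3.72), and Tgfb2 (-1.31). Fgf16, a growth factor of heart muscle, had 96.0, 87.7 and 69.6 in the ventricles, against 2.28, 0, 0 and 0 in the E13.5 hearts. Of 31 cardiac transcription factors 7 fell and 3 rose (4 lower without ventricle 1, 3 without ventricle 2, 3 without ventricle 3 and 3 without heart 4, and 0 higher without ventricle 2 and 0 without ventricle 3). Among the lower ones were Gata5, of the endocardium (-4.76), Tbx5 (-1.51), Tbx18 (-1.33), Isl1 (-4.72) and Shox2 (-3.14), with Bmp10, a ligand kept in that list. Mef2a rose by 0.93 and Smyd1, a muscle methyltransferase, by 0.81. Nkx2-5 averaged 68.6 ± 7.53 in the ventricles and 54.9 ± 28.9 in the E13.5 hearts (limma adjusted p = 0.666) and Gata4 123 ± 28.9 in the ventricles and 104 ± 44.8 in the E13.5 hearts (limma adjusted p = 0.722). Of 21 splicing regulators 3 rose, Rbm20, which selects titin isoforms, by 1.59, Mbnl2 by 1.01 and Qk by 0.88 (1 higher without ventricle 3). None of 23 Hippo, Yap and neuregulin genes was called, at a median of -0.18 (1 higher without heart 2, and 1 lower without ventricle 1 and 1 without heart 3).

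Of 57 cytosolic ribosomal protein genes 20 fell, 1 rose and 36 were not called, at a median of -0.60 (6 lower without ventricle 1, 4 without ventricle 2, 10 without ventricle 3, 9 without heart 1, 9 without heart 3 and 7 without heart 4). The lower calls were 3 in 1 fit of 20 libraries, 1 with the replicate block and 0 with preparation year as a covariate. Rps27 fell by 1.09, Rps28 by 0.84, Rps3 by 0.79 and Rpl7 by 0.69. Rps3 had 3231, 3212 and 2767 in the ventricles, against 5383, 4912, 5396 and 5479.6 in the E13.5 hearts. Rpl3l, the muscle form of Rpl3, had 66.5, 91.7 and 33.0 in the ventricles, against 25.4, 0, 0 and 0 in the E13.5 hearts, and rose by 4.72 (limma adjusted p = 0.0434; 0 higher without ventricle 1, 0 without ventricle 2, 0 without ventricle 3, 0 without heart 2, 0 without heart 3 and 0 without heart 4), while Rpl3 averaged 4736 ± 87.5 in the ventricles and 6842 ± 1112 in the E13.5 hearts (limma adjusted p = 0.0785). Ribosomal protein genes have many processed pseudogenes, to which reads can be assigned in part. In the knockout libraries the median was -0.41 and 5 fell. Of 29 ER chaperone genes 7 fell and 1 rose (2 lower without ventricle 1, 2 without ventricle 2, 3 without ventricle 3, 4 without heart 1, 3 without heart 2, 3 without heart 3 and 4 without heart 4); the disulfide isomerases Pdia4 and Pdia6 fell by 1.30 and 1.02, Hsp90b1 by 0.69 and Sec61b, of the translocation pore, by 1.06, and Herpud1 rose by 1.21 (0 higher without ventricle 1, 0 without ventricle 2, 0 without ventricle 3, 0 without heart 1 and 0 without heart 3). With preparation year as a covariate 0 of the list were lower. No ER chaperone gene was called in the knockout libraries. None of 35 proteasome genes was called, at a median of 0.02 (1 lower without heart 2). Of 23 cholesterol synthesis genes 2 fell, among them Sqle by 2.22 (1 lower without ventricle 1, 1 without ventricle 2, 1 without heart 1, 1 without heart 2, 1 without heart 3 and 1 without heart 4).

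The cell types of the wall differed in their markers. Of 10 cardiomyocyte markers 8 rose, with a summed signal of 278328 to 325519 in the ventricles, against 129224 to 147483 in the E13.5 hearts. Of 20 atrial markers 9 fell and none rose (5 lower without ventricle 1, 5 without ventricle 2, 4 without ventricle 3 and 4 without heart 4), at a median of -1.501, and in P3 atria against the same hearts the median was 2.003. Of 15 ventricular markers 7 rose and 2 fell, Myh7 and Tnni2, the skeletal troponin I, which differed by -2.37 (1 lower without ventricle 2, 1 without ventricle 3, 1 without heart 2 and 1 without heart 4). Of 12 conduction markers 5 fell and 2 rose (3 lower without ventricle 1, 3 without ventricle 2, 3 without ventricle 3, 3 without heart 1, 3 without heart 3 and 2 without heart 4, and 1 higher without ventricle 2 and 1 without ventricle 3): Isl1, Shox2, Id2, Gja5 and Cacna2d2 (-3.70) fell. Tissues that only the whole hearts contain carry many of these genes; their part in the results was not tested.

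Endothelial markers rose in part: 13 of 31 were higher and 1 lower, at a median of 1.28 (8 higher without ventricle 1 and 7 without ventricle 2). The summed signal was 33582 to 43178 in the ventricles, against 6484 to 8590.2 in the E13.5 hearts. Cd36, which heart muscle also expresses, and Fabp4 made up 23852 to 31844 of it in the ventricles and 881 to 2551 in the E13.5 hearts. The other 29 members summed to 9730.4 to 11334 in the ventricles, against 5229 to 6039 in the E13.5 hearts, 1.89-fold between the means, and 5.43-fold with both. Fabp4 had 8061, 10439 and 11718 in the ventricles, against 354, 588, 508 and 146 in the E13.5 hearts. Ly6c1 and Ly6a, surface proteins of capillary cells, were near 0 in the hearts: Ly6c1 had 185, 109 and 136 in the ventricles, against 5.26, 0, 0 and 0 in the E13.5 hearts. Kdr, the VEGF receptor, rose by 1.38, Cdh5, the junction protein of vessels, by 1.28, Gpihbp1, which holds Lpl on capillaries, by 3.73, and Npr3, also endocardial, fell. Pecam1 averaged 462 ± 44.8 in the ventricles and 371 ± 108 in the E13.5 hearts (limma adjusted p = 0.497). Of 13 smooth muscle and pericyte markers 4 rose, among them Rgs5 with 1603, 1549.9 and 1926 in the ventricles, against 324, 63.4, 159 and 145 in the E13.5 hearts and Higd1b, a pericyte gene, with 135, 179.5 and 134 in the ventricles and listed at 0 in all hearts; Cnn1 and Mcam fell (1 lower without ventricle 1, 1 without ventricle 2, 1 without ventricle 3 and 1 without heart 3).

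Fibroblast and matrix genes changed in 2 directions. Of 18 fibroblast markers 9 rose and 1 fell, at a median of 0.96 (5 higher without ventricle 3). Dpt, dermatopontin, had 2276, 2135 and 1873 in the ventricles, against 36.5, 154, 89.2 and 71.1 in the E13.5 hearts, and rose by 4.74 ± 0.41 (limma adjusted p = 8.52e-05). Dcn, decorin, which trims collagen fibrils, had 3638, 4112 and 4199 in the ventricles, against 1313, 1150.0, 641 and 939 in the E13.5 hearts, Postn, periostin, rose by 1.62 and Col3a1 by 1.10, and Fn1, fibronectin, fell by 0.77. Of 34 collagen and fibril genes 9 rose and 5 fell (3 lower without heart 4). Col2a1, the cartilage collagen also made by valve primordia, had 163, 106, 316 and 139 in the hearts and was listed at 0 in all ventricles, and Col14a1 and Col15a1 rose by 2.56 and 3.49. Of 32 genes of cushion and elastic matrix 9 fell and 3 rose (5 lower without ventricle 2, 5 without ventricle 3 and 4 without heart 3): Vcan, versican, fell by 1.64, Hapln1, which links versican to hyaluronan, by 2.92, Has2, the hyaluronan synthase of the cushions, by 2.82, and Fbn2, fetal fibrillin, by 1.30, while Eln, elastin, and Mfap5, of microfibrils, rose by 1.28 and 4.01. Of 16 epicardial markers 4 fell and none rose (2 lower without ventricle 1, 2 without ventricle 2, 2 without ventricle 3 and 1 without heart 4), with Upk3b at 67.7, 56.5 and 71.8 in the ventricles, against 198, 218, 296 and 308 in the E13.5 hearts. The median of the epicardial markers was -1.03 in the ventricles and 0.95 in P3 atria, each against the same E13.5 hearts.

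Embryonic globins had the steepest fall of all tested genes, while most immune markers were not called. Of 14 globin and erythroid genes 7 fell and 1 rose. Hbb-y (chromosome 7, 103851749 to 103853216 on the minus strand) had 1.88, 14.9 and 0 in the ventricles, against 82892, 17438, 73405 and 25975 in the E13.5 hearts, and Hba-x (chromosome 11, 32276400 to 32278116 on the plus strand) had 0, 2.65 and 0 in the ventricles, against 12952, 2579.8, 10275 and 5132 in the E13.5 hearts. Both embryonic globins were under 15 in each ventricle, and every heart was far above every ventricle. Hbb-bh1 had 873, 154, 498 and 342 in the hearts and was listed at 0 in all ventricles. The adult genes Hba-a1 and Hba-a2, near copies that share reads, differed by -2.36 and -2.37. Tfrc, the transferrin receptor, rose by 1.44 (0 higher without ventricle 3). None of 16 macrophage markers was called (1 higher without heart 1, and 1 lower without heart 1), with a summed signal of 1030.4 to 1070.2 in the ventricles, against 901 to 1217 in the E13.5 hearts, and none of 9 nerve and glia markers. Cma1 and Mcpt4, mast cell proteases, were called higher (0 higher without ventricle 1, 0 without ventricle 2, 1 without ventricle 3, 1 without heart 3 and 1 without heart 4), with Cma1 at 215, 83.5 and 96.0 in the ventricles, against 25.2, 22.2, 0 and 0 in the E13.5 hearts. Of 18 MHC, interferon and complement genes 4 rose (1 higher without ventricle 1, 0 without ventricle 2 and 1 without ventricle 3): Ifitm3 by 1.54, H2-D1 by 2.08, C3 by 5.43 and C1s1 by 4.71.

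Most stage differences had the same sign in mice without Creld1 in heart muscle. Knockout hearts 1, 2 and 3 were prepared in 2016, and knockout heart 4 and all knockout ventricles in 2018, as in wild-type. The knockout set also compares ventricles with whole hearts. A shared sign therefore does not separate stage from dissection, or fully from preparation year. Creld1 itself had 19.9, 59.3 and 51.9 in the knockout ventricles and 62.2, 59.7 and 129.6 in the wild-type ventricles, and 70.9, 7.48, 38.4 and 4.64 in the knockout hearts and 66.0, 92.2, 60.8 and 34.0 in the wild-type hearts. The library labelled knockout heart 1 had more Creld1 than wild-type heart 1, and the library labelled knockout ventricle 2 had as much as wild-type ventricle 2. Other cells of the heart keep the gene in these mice. Between knockout ventricles and knockout hearts 557 genes (3.67%) were higher and 327 (2.16%) lower by limma. The higher calls were 286, 355 and 298 without knockout ventricles 1, 2 and 3, and the lower calls were 187 without knockout ventricle 1 and 196, 209 and 164 without knockout hearts 1, 2 and 3. Of the 1243 wild-type calls 1207 (97.1%) had the same sign and 576 (46.3%) were also called. The difference between the stage effects was tested by an interaction term over 14 libraries. Of 15168 genes 743 (4.90%) had an unadjusted p under 0.05 by limma. Where nothing differs, this threshold passes a share of about 0.05. After adjustment 0 genes passed by limma, and the smallest adjusted p was 0.540. Without knockout ventricle 2 the count was 4, and without wild-type ventricle 2 it was 1. The lowest interaction p-values belonged to Pdlim3, Cdh3, Cnn1, Aebp1 and Clu, whose stage difference in knockouts minus that in wild-type mice was 1.86, 3.38, 3.68, 2.80 and 1.40, and to Slc36a2, Sult1a1, Clk2, Plppr4 and Pdss2, where it was -5.72, -3.66, -2.54, -6.45 and -2.53, none of them called.

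**Figure D4:**
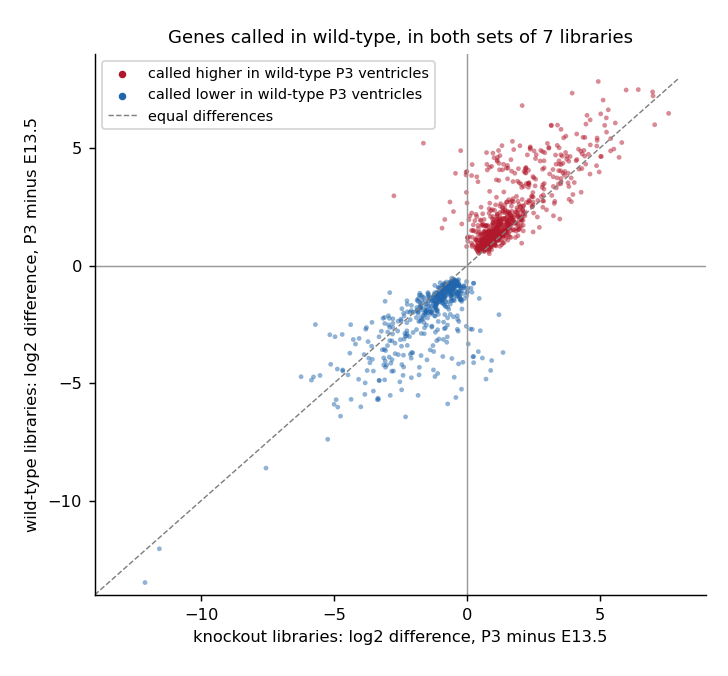
Log2 difference of P3 ventricles minus E13.5 hearts in knockout libraries (horizontal axis) and in wild-type libraries (vertical axis), 1 point per gene called in wild-type mice (red, higher; blue, lower; dashed line, equal differences). Of 1243 points 1207 have the same sign on both axes.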

How the data were processed

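RNA was extracted with a Qiagen RNeasy Micro kit from frozen tissue and made into libraries by SMART-Seq2, per the labels' protocols. Per the submitters' processing notes, the mm10 build was used along with STAR 2.5.1, bcl2fastq 2.2 and DESeq2, without a stated role for each; how reads were counted, by which annotation and with what strand setting is not given in the sources used here. Deposited values are a normalized signal per gene, scaled by the authors to a common level per library, and are not whole counts. Among values up to 100 estimated reads, 45.8 to 58.4% per library were whole multiples of a step. In a class with processed pseudogenes and small RNA genes the share was 99.7 to 99.8%. The step of that class was taken as 1 read, and depth was estimated from it. The median ratio of a library to the gene-wise geometric mean was 1.04 in each of the 7 libraries, while their totals differed. No column of the table was left unused: 0 columns of per-sample values had no label.

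Libraries were grouped by title, tissue, age and genotype labels. Genes with a signal of 10 or more in at least 3 of the 7 libraries were tested on log2(signal + 1) with limma 3.58.1 in R 4.3.3 (trended prior, Benjamini-Hochberg adjustment over all tested genes, threshold 0.05, two-sided). The code was tested on simulated data. Single ratios per library were compared by an exact permutation test. P-values measure the spread between these pups and embryos, of which hearts 2 and 3 share a litter. Replicate numbers did not pair the samples: correlations of deviations between ventricles and hearts ran from -0.038 to 0.0398. Alternatives were pseudocount 10, no filter, TMM factors (written in base R), equal totals, equal totals outside the mitochondrial genome, no variance trend, 1 fit of 20 libraries, a replicate block, preparation year, 2018 libraries alone, and leaving out each library. The equal nuclear total was chosen after seeing the data.

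The gene lists and members were chosen with earlier results of these data known. Named genes were the 12 with the largest differences per direction among called, non-overlapping genes of at least median level, up to 4 called members of each list with the smallest p and up to 2 in the other direction, all isoform pairs, markers and regulators, and 5 genes per direction for the interaction; further list members are named to show a pathway's steps and were chosen after their values were seen. A few genes that fell under the rule are not reported here. Gene positions come from GENCODE M21 (GRCm38, the same build as mm10), in which all 1252 named or listed genes were found, and 421 of them overlap an exon of another gene. Promoters come from RefSeq tables of GRCm38.p6.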

Additional observations from a re-analysis of the deposited data

Results flagged for a closer look

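In 303 sets of 4 E13.5 hearts (named genes, isoform ratios, depth, genes detected and mitochondrial share), 24 (7.92%) had 1 heart far from the other 3. A chance rate of about 1 in 20 assumes independent, normally distributed values, which these sets were not shown to have. An excess over chance is therefore not shown. Heart 2 stood apart in Ccng1 (normalized signal 1713), Mycn (377.9), Myl7 (3805), Myl9 (2373), Nr3c1 (560.3), Rps3 (4912), Sdha (4596) and Xist (17.8). Heart 1 stood apart in Acat1 (1215), Cox7a2 (5424), Ednrb (3088), Fgf16 (2.28), Ly6c1 (5.26), Ppargc1b (128.5), Rpl3l (25.4) and the log2 ratio of Rpl3l to Rpl3 (-8.29). Heart 3 stood apart in C1s1 (7.599), Ephx2 (248.8), Hapln1 (698.3) and Socs2 (502.6). Heart 4 stood apart in Angptl4 (43.5), Dbp (2.71), Ppargc1a (1316) and Tnnt2 (21334). In Fgf16, Ly6c1, Rpl3l and Dbp the other 3 hearts had no signal. The rule flagged such a set even at a signal as low as 2.28, so these flags say little about the heart. Rpl3l was also counted again through its ratio to Rpl3. Groups of 3 ventricles are too small for this rule. No gene had a stage difference that passed the test between knockout and wild-type libraries.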

How the results depend on the processing

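The counts of genes higher and lower were 743 and 500, and 645 and 392 at 2-fold or more. Rescaling to the same total gave 414 and 2335 (327 and 1833 at 2-fold), and rescaling to the same total outside the mitochondrial genome gave 808 lower (607 at 2-fold). Of the calls 59.8% were higher in the main scaling, against 15.1% and 42.6% under these scalings. Preparation year as a covariate gave 150 and 34 (150 and 34 at 2-fold), the 2018 libraries alone, with 1 heart assumed to vary like the ventricles, 82 and 8 (82 and 8), and no variance trend 346 and 182 (346 and 182). Without 1 library each, higher calls ran from 376 to 761 and lower calls from 254 to 469, and at 2-fold from 350 to 684 and from 239 to 373. In knockout libraries they ran from 286 to 473 and from 164 to 230, and the interaction gave 0 to 4. The cause of these shifts was not tested. Pseudocount 10, no filter, TMM factors and 1 fit of 20 libraries stayed within 1.5 times of each of these counts of all genes. Counts within lists moved further in the fit of 20 libraries. There 2 of 15 mitochondrial genome genes and 20 of 44 nuclear genes of complexes II to V were higher. Of 57 ribosomal protein genes 3 were lower, and of 48 mitosis genes 2. Fatty acid genes kept 31 of 37 higher.

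The replicate number as a block gave 436 and 204 (414 and 193 at 2-fold) in wild-type and 353 and 145 in knockout libraries; the numbers do not pair the samples, and the interaction stayed at 0.

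Of 282 named genes 257 were called. Under the same total 2 of them changed direction, Actc1 (-0.068) and Uqcr10 (-0.052), and under no other setting did a called one. Pseudocount 10 and TMM factors kept all their calls, the block ended 69, no variance trend 103 and the year covariate 166. The 2018 libraries alone, with 1 heart, ended the most. With the year covariate 0 members were called in the lists of the intercalated disc, adrenergic signalling, natriuretic peptides, mitosis, replication, splicing, ribosomal proteins, ER chaperones, cholesterol synthesis, epicardium, mast cells, MHC and complement, and neighbouring tissues; the other lists with calls kept at least 1. Estimated depth of 5579749 to 13956285 limits what can be said of genes near a signal of 10.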

Other observations

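The genes in the next sentences were chosen after their values were seen. Several further genes of fat metabolism were higher in the ventricles: Ech1, which prepares unsaturated fatty acids for oxidation, by 3.38 on the log2 scale, Phyh, of branched-chain oxidation, by 2.33, Hsdl2 by 3.50 and the epoxide hydrolase Ephx2 by 2.77 (limma adjusted p = 1.49e-05, 4.69e-05, 0.000123 and 0.000123). Of the genes of coenzyme Q synthesis, Coq8a had 394, 322 and 644 in the ventricles, against 33.2, 23.01, 71.8 and 32.5 in the E13.5 hearts, and Coq9 and Coq5 were higher by 1.49 and 1.45. Cavin4, a muscle protein of caveolae, had 512, 520.5 and 809 in the ventricles, against 12.2, 29.4, 1.70 and 16.4 in the E13.5 hearts; the lowest ventricle was far above the highest heart. Mhrt, the non-coding RNA opposite Myh7, had 479, 428 and 523 in the ventricles, against 64.2, 44.7, 16.04 and 62.5 in the E13.5 hearts, although reads of Mhrt and Myh7 cannot be told apart without strand. The long non-coding Neat1, of nuclear paraspeckles, had 1312, 1144 and 1609 in the ventricles, against 58.5, 138, 247 and 89.3 in the E13.5 hearts, a difference of 3.53 ± 0.42 (limma adjusted p = 0.000687) and of 3.80 in the knockout libraries.

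The following lower genes were also chosen after their values were seen. The X-linked Bex1, Bex2, Bex3 and Bex4 differed by -1.44, -5.68, -1.34 and -2.53, and Bex4 had 254, 141 and 196 in the ventricles, against 1097, 1100.4, 1349.9 and 928 in the E13.5 hearts. Slit2, a guidance signal, had 144, 249 and 87.0 in the ventricles, against 806, 1463, 1194 and 1423 in the E13.5 hearts, Unc5c, a netrin receptor, had 8.83, 22.9 and 4.78 in the ventricles, against 342, 218, 262 and 119 in the E13.5 hearts, and Slitrk5 had 0.941, 0 and 17.4 in the ventricles, against 236, 246, 381 and 267 in the E13.5 hearts. All 3 had every heart above every ventricle, and 20.9% of all tested genes had groups that did not overlap in either direction. Kcnq1ot1, the non-coding RNA of the imprinted domain that holds Cdkn1c (chromosome 7, 143203458 to 143296549 on the minus strand), fell by 1.62 and Cdkn1c fell by 3.98. The chromatin genes Dnmt3a, Hmgn1 and Hmgn2 differed by -1.40, -1.25 and -0.69 (limma adjusted p = 0.00148, 0.00105 and 0.0105). The secreted factors Fst, follistatin, and Apela, a ligand of the apelin receptor, had 9.22, 1.17 and 0 in the ventricles, against 133, 119.8, 110.1 and 150.5 in the E13.5 hearts for Fst and 12.1, 0 and 19.6 in the ventricles, against 169, 156, 164 and 164 in the E13.5 hearts for Apela. Their levels in the knockout libraries differed in the same direction, by -2.88 and -5.52. Apart from Cdkn1c and Myh7, the genes of these paragraphs were in no list chosen for the comparison, and no explanation was tested.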
